A study of Mus musculus with 62 samples.

Results

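The genes described here were 40 genes of DNA synthesis and cell division, chosen by name and read in the diaphragm of mice, the main muscle of breathing. The mice carried a tumor that induces cachexia, a tumor that does not, or no tumor. All 40 were present among the 47643 genes of the table. They comprised 4 genes of entry into S phase (Ccne1, Ccne2, Cdk2, E2f1), 9 of replication licensing and the replication fork (Cdc6, Cdc45, Mcm2 to Mcm7, Pcna), 3 of nucleotide supply (Rrm1, Rrm2, Tyms), 7 mitotic cyclins and kinases, 13 genes of the spindle, kinetochore and cytokinesis, 2 of the ligase that ends mitosis (Cdc20, Ube2c) and 2 that mark the chromosomes of dividing cells (Mki67, Top2a). The last 24 are called the mitosis members below. The genes were picked by name and not by a cutoff on their values, but with earlier results of these data known.

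A cell that leaves rest raises cyclin E and E2F activity, loads the ring-shaped MCM helicase on its origins, and then copies its DNA with polymerases held on the template by the sliding clamp PCNA. Cyclin A and cyclin B with the kinase CDK1 then drive mitosis, in which kinesins, the Aurora kinases and the kinetochore proteins build the spindle, and the anaphase-promoting ligase ends it. Mature muscle fibers have left the cell cycle for good, so transcripts of mitosis in whole muscle come mainly from single-nucleus cells such as endothelial cells, fibroblasts, blood cells and satellite cells, the stem cells of muscle. Several replication proteins, PCNA among them, also serve DNA repair in cells that do not divide.

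The study compared 3 groups of female mice at 2, 4, 6 and 8 weeks after injection in the flank: cachectic mice and non-cachectic mice, which each carried human melanoma tissue from 1 of 2 patient-derived xenografts, and control mice, which had a mock injection. Each of the 12 conditions held 5 mice, except the cachectic mice at 8 weeks, which numbered 7, and each of the 62 libraries was the muscle of 1 mouse. The mice were 2 months old at injection. The sample labels name the strain C57BL6/J and a stranded mRNA kit, while the series description and the study's methods name nude mice, and the methods name an unstranded kit. Each tumor group rested on 1 xenograft, so wasting and any other difference between the 2 tumors cannot be told apart. The labelled tissue had its markers: 10 muscle fiber genes summed to between 45161 and 100771 TPM (transcripts scaled to a fixed total per library) in every library. The T cell gene Cd3e, by contrast, was listed at 0 in 32 of the 62 mice and did not pass 0.27 TPM.

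Before any comparison, 4 libraries stood apart. They listed 15069 to 16389 genes above 0, against 17909 to 19057 in the other 58, and the 37 mitochondrially encoded genes took 54.4 to 61.5% of their TPM, against 32.5 to 50.1%. At 2 weeks these were replicates 3 and 4 of the cachectic group along with replicate 5 of the non-cachectic group. The other was replicate 3 of the cachectic mice killed at 8 weeks. The mitochondrial share was lower in the other cachectic mice late on: its median was 39.8% at 6 weeks and, without replicate 3, 38.1% at 8 weeks, against 46.2% and 44.2% in control mice and 46.5% and 45.1% in non-cachectic mice. TPM are shares of a fixed total. The median of all tested genes was itself shifted, by -0.42 on the log2 scale for cachectic against control mice at 2 weeks and by 0.17 at 6 weeks. At 8 weeks that median was -0.09, but it was -0.21 where TPM were rescaled without the mitochondrial genes. The cause of these shifts was not tested.

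Liver transcripts also set some libraries apart. The 10 liver genes summed to 21.8 to 25387 TPM (median 9186) in the control mice at 2 weeks, while the medians of the other 11 conditions lay between 48.9 and 222 TPM. At 2 weeks 7 liver genes were called lower in non-cachectic than in control mice, where 4.43% of all tested genes were called. Trf was called lower in cachectic than in control mice, where 29.3% were called. With the liver list as a covariate, the 2 member calls against control mice at 2 weeks and both differences in the change per week given below no longer passed, whereas the numbers of members called at 6 and 8 weeks in the filtered fit were the same.

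Most members were weakly expressed. Averaged over the 62 mice, 13 members reached 1 TPM and 27 did not, 19 of them staying under 0.5 TPM. Pcna was the most abundant at 22.3 TPM, followed by Rrm1, the large subunit of ribonucleotide reductase, at 13.8 TPM. Cdk2, the kinase partner of cyclin E, came next at 6.20 TPM and the MCM subunits lay between 1.56 TPM for Mcm5 and 5.80 TPM for Mcm4. The mitosis members were lower, from 1.36 TPM for Cenpa, the centromeric histone, to 0.0844 TPM for the checkpoint kinase gene Bub1 and 0.0834 TPM for the kinetochore gene Cenpf. The ranges of neighbors in this order overlapped widely over the 62 mice, and the range of Pcna, from 17.0 to 33.0 TPM, met that of Rrm1, from 5.84 to 17.3 TPM, only at its lower end. In at least 1 mouse, 5 members were listed at 0: Bub1 in 3 mice, and Plk1, Aurkb, Bub1b and Cenpf in 1 mouse each. TPM keep no read depth, so the number of reads behind these low values is unknown.

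**Figure D1:**
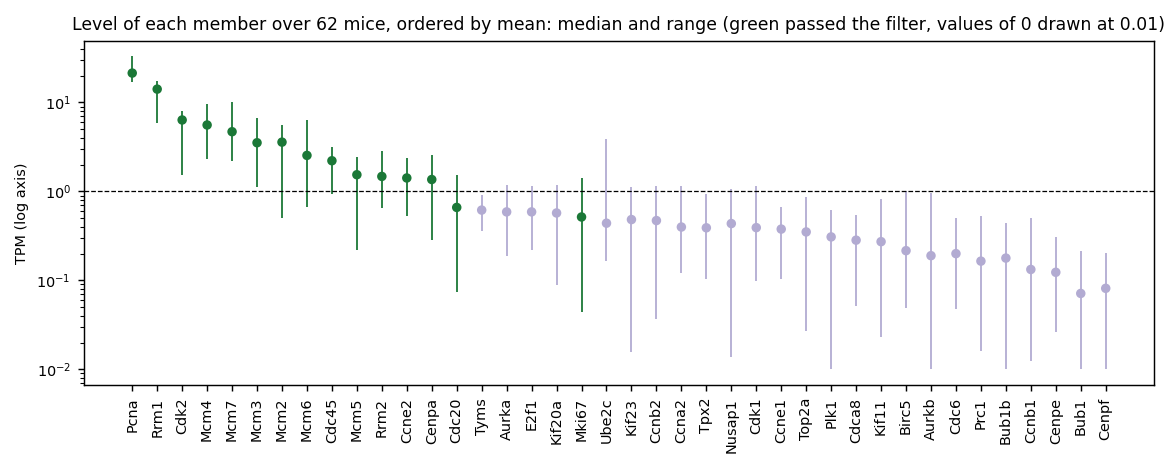
Level of each of the 40 members over 62 mice, ordered by mean. Points are the median and lines the range, in TPM on a log axis; values listed as 0 are drawn at 0.01, the dashed line marks 1 TPM, and green marks the 15 members that passed the filter on low values. Pcna leads and the mitosis members fill the lower part of the order.

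Differences were tested with limma on log2 values over all genes, with Benjamini-Hochberg adjustment, and a gene was called at an adjusted p below 0.05. The filtered fit used log2(TPM + 1) and the 13578 genes that reached 1 TPM in 5 or more mice. Only 15 members passed that filter (Ccne2, Cdk2, Cdc45, Mcm2 to Mcm7, Pcna, Rrm1, Rrm2, Cenpa, Cdc20 and Mki67). Mki67 passed it through 9 mice, 3 control and 6 non-cachectic and 0 cachectic, so its place among the tested genes rested on the groups in which it was high. An unfiltered fit on log2(TPM + 0.1), added after the data had been seen, took the 23900 genes above 0 in at least 1 mouse and so held all 40 members. Log2 differences from either scale understate the change of weakly expressed genes, the first more so. In bulk tissue, fewer cells of a type and less RNA per cell cannot be told apart.

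Pcna was the 1 member called higher in cachectic mice at 8 weeks, against either group. It stood at 19.7, 20.9, 22.4, 22.6 and 19.0 TPM in the control mice and at 22.1, 20.6, 21.0, 18.2 and 22.1 TPM in the non-cachectic mice. The cachectic mice had 30.2, 32.3, 33.0, 26.0, 23.3, 31.4 and 26.1 TPM, all above every mouse of the other 2 groups. The mean was 28.9 ± 3.73 TPM (SD, n = 7) against 20.9 ± 1.63 (n = 5) in control mice, 1.38 times as high. At 6 weeks the cachectic mice had 32.9, 27.0, 26.6, 25.3 and 24.8 TPM, with a mean of 27.3 ± 3.26 (SD, n = 5), above all control mice (18.2 to 21.4 TPM) and overlapping the non-cachectic mice (18.7 to 25.0 TPM) at 1 end. At 2 and 4 weeks the cachectic means were 22.1 ± 1.31 and 22.4 ± 2.40 TPM, against 20.4 ± 2.39 and 20.4 ± 0.82 in control mice and 20.1 ± 1.76 and 20.3 ± 1.00 in non-cachectic mice.

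In the filtered fit, Pcna was higher in cachectic than in control mice by 0.44 ± 0.089 (SE) on the log2(TPM + 1) scale at 6 weeks, with a limma adjusted p of 0.00095, and by 0.44 ± 0.083 at 8 weeks, with an adjusted p of 0.0001. Against non-cachectic mice the differences were 0.30 ± 0.089 (adjusted p = 0.029) and 0.45 ± 0.083 (adjusted p = 9.6e-05). Relative to the median of all tested genes, the rise over control mice was 0.27 at 6 weeks and 0.53 at 8 weeks. The 6-week difference from control mice passed the test on TPM as deposited but not after other scalings: it was 0.25 with median-ratio scaling (adjusted p = 0.56), 0.26 with quantile normalization (adjusted p = 0.31) and 0.28 with TPM rescaled over nuclear genes (adjusted p = 0.14). At 8 weeks it passed under all of them, at 0.60, 0.46 and 0.35, and it passed with each of the 12 mice left out in turn.

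The change of Pcna over time was read per week of the study, with different mice at each week. In cachectic mice it changed by 0.0684 ± 0.013 per week on the log2(TPM + 1) scale (limma adjusted p = 0.00013), but the median of all tested genes changed by 0.0519, which left 0.0165 for Pcna. The difference from the change in control mice was 0.0648 ± 0.019 (adjusted p = 0.0245), 0.0136 above the median of 0.0511 over all tested genes. With median-ratio scaling the change in cachectic mice was 0.0046 per week (adjusted p = 0.93), and it did not pass with quantile normalization or over nuclear genes either. Mcm4, a subunit of the helicase, was the other member with such a difference in the filtered fit, 0.11 ± 0.034 (adjusted p = 0.0348), 0.05 above the median. In the unfiltered fit it did not pass (0.12 ± 0.040, adjusted p = 0.061). The level of Mcm4 in cachectic mice went from 3.92 ± 1.19 TPM at 2 weeks to 7.45 ± 2.12 TPM at 8 weeks. At 8 weeks, 6 of the 7 cachectic mice had 7.03 to 9.68 TPM, above all control mice at 4.29 to 6.04 TPM, while replicate 3, 1 of the 4 libraries that stood apart, had 3.09 TPM. The difference from control mice at 8 weeks did not pass the test with that library (0.31, adjusted p = 0.16) and did without the 4 libraries (0.47, adjusted p = 0.00016). In cachectic mice the filtered fit called Pcna, Mcm3 and Mcm4 rising and Cenpa falling per week, in a comparison in which 34.4% of all tested genes were called, and for the difference in slope between cachectic and control mice 12.1% were. The unfiltered fit called the same 3 rising along with Tyms (0.08 ± 0.026 per week, adjusted p = 0.028) and Nusap1 (0.17 ± 0.048, adjusted p = 0.0103), where 16% of genes were called rising, and Cenpa falling, where 2.24% were. Its only member with a difference in slope was Pcna, where 3.77% of genes were called higher and 0.51% lower. No member was called for a change per week in control mice, where 3.48% of genes were, or in non-cachectic mice, where 0% were called and 968 genes had an unadjusted p below 0.05. After rescaling over nuclear genes neither slope difference passed, and the split in cachectic mice became 1 rising and 2 falling. The share of all genes called in that fit is not given here, so the split is not read as particular to the members.

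**Figure D2:**
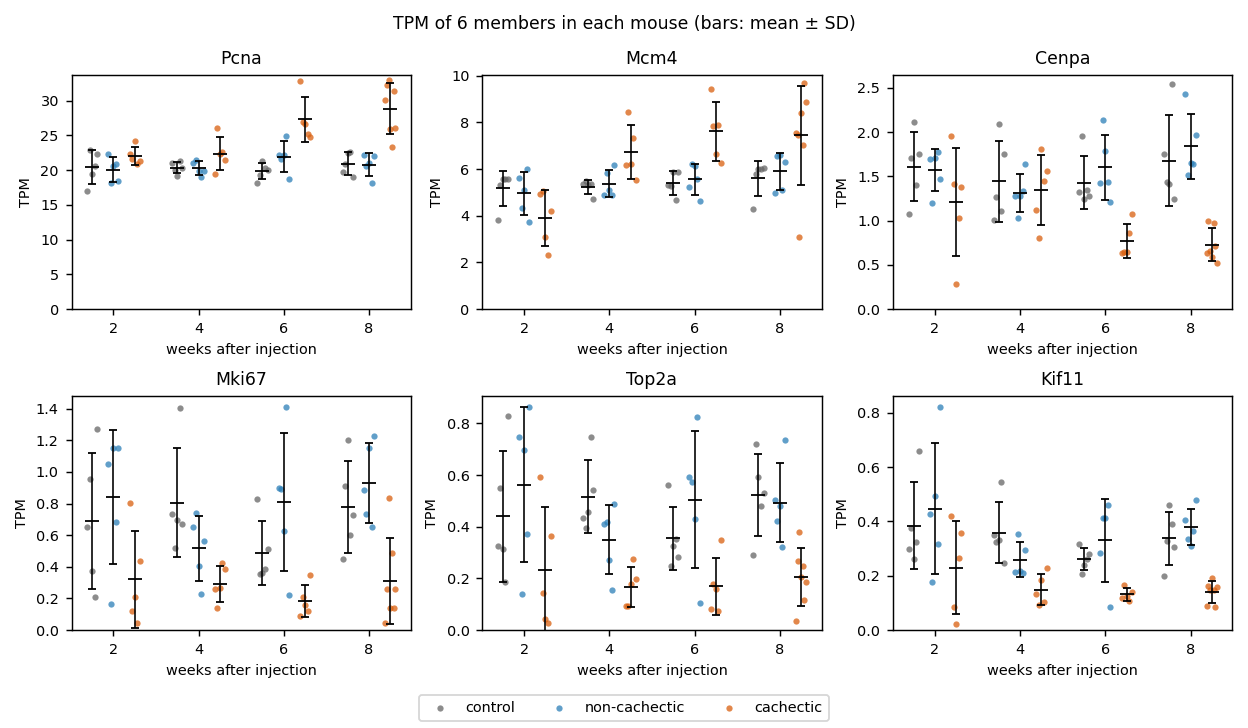
TPM of Pcna, Mcm4, Cenpa, Mki67, Top2a and Kif11 in each mouse by week and group, with bars for the mean ± SD. At 8 weeks all 7 cachectic mice lie above the other groups for Pcna and below them for Cenpa and Kif11.

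The other members that passed the test at 8 weeks were lower in cachectic mice. Cenpa, which marks the centromere on which the kinetochore is built, had 0.520 to 0.999 TPM (median 0.659) in the 7 cachectic mice, 1.24 to 2.54 TPM in the control mice and 1.52 to 2.43 TPM in the non-cachectic mice. No cachectic mouse overlapped either group, and the control mean was 2.31 times the cachectic mean. The difference on the log2(TPM + 1) scale was -0.62 ± 0.136 against control mice (limma adjusted p = 0.00077) and -0.71 ± 0.136 against non-cachectic mice (adjusted p = 0.00014), and both passed with each of the 12 mice left out in turn. Ccne2, a cyclin E that partners CDK2 at the start of S phase, had 0.523 to 1.03 TPM in the cachectic mice and 1.07 to 2.01 TPM in the control mice, with differences of -0.49 ± 0.135 and -0.44 ± 0.135 (adjusted p = 0.0084 and 0.022). Rrm2, the small subunit of ribonucleotide reductase, had 0.882 to 1.42 TPM in the cachectic mice against 1.43 to 2.06 TPM in the control mice, with differences of -0.35 ± 0.114 and -0.34 ± 0.114 (adjusted p = 0.028 and 0.038). The Ccne2 call against non-cachectic mice was lost without non-cachectic replicate 1 or 5 and with quantile normalization (adjusted p = 0.086). The Rrm2 call against control mice was lost without control replicate 4 or 5, and that against non-cachectic mice passed with only 4 of 12 mice left out in turn. With the replicate number as a block the Rrm2 adjusted p values were 0.051 and 0.065, and with median-ratio scaling 0.18 and 0.18.

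Mki67 encodes Ki-67, which coats mitotic chromosomes and is present in cycling but not in resting cells. At 8 weeks it stood at 0.446, 0.910, 1.20, 0.601 and 0.729 TPM in the control mice and at 0.886, 0.734, 1.15, 0.648 and 1.23 TPM in the non-cachectic mice. The cachectic mice had 0.0476, 0.258, 0.832, 0.140, 0.490, 0.138 and 0.259 TPM. Of these, 5 lay below all mice of the other groups, and the highest, replicate 3, was the library with few detected genes. The mean was 0.777 ± 0.291 TPM in control mice (SD, n = 5) and 0.309 ± 0.270 (n = 7) in cachectic mice, a ratio of 2.51. Since Mki67 passed the filter through the other groups, its test is taken from the unfiltered fit: the difference was -1.28 ± 0.408 on the log2(TPM + 0.1) scale against control mice (limma adjusted p = 0.038) and -1.54 ± 0.408 against non-cachectic mice (adjusted p = 0.0107). The first of these passed with only 4 of the 12 mice left out in turn, the second with all 12. The lower mean was present at each week: the control mean was 2.14, 2.74 and 2.62 times the cachectic mean at 2, 4 and 6 weeks. At 2 weeks, however, cachectic replicates 3 and 4 were among the libraries that stood apart. Mki67 and Top2a summed to 0.252 and 0.0710 TPM in those 2 libraries, and to 1.40, 0.262 and 0.801 TPM in replicates 1, 2 and 5. The control mice at that week had 0.394 to 2.10 TPM. At 4 weeks the cachectic mice had 0.139 to 0.423 TPM and the control mice 0.518 to 1.40 TPM, without overlap, although the difference did not pass the test.

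Mki67 set aside, the filtered fit called Pcna higher and Cenpa, Ccne2 and Rrm2 lower against control mice at 8 weeks, in a comparison in which 14.8% of all tested genes were called, and the same 4 genes in the same directions against non-cachectic mice, where 12.9% were. At 6 weeks it called Pcna higher and Cenpa lower against control mice, with 6.79% of genes called, and against non-cachectic mice, with 5.85% called. Cenpa had 0.628 to 1.07 TPM in the cachectic mice at 6 weeks and 1.24 to 1.96 TPM in the control mice, with a difference of -0.46 ± 0.147 (adjusted p = 0.046) that passed with only 1 of 10 mice left out in turn. At 4 weeks no member was called in either comparison, where 0.0221% and 0.0295% of genes were. At 2 weeks Rrm1 and Cdk2 were called lower against control mice, by -0.35 ± 0.136 and -0.52 ± 0.196 (adjusted p = 0.048 and 0.041), in a comparison in which 29.3% of genes were called. Those 2 values lay close to the median of all tested genes (0.07 above it for Rrm1 and 0.10 below it for Cdk2), and neither member was called without the libraries that stood apart. Against non-cachectic mice at 2 weeks no member was called, and 0% of genes were, with 1709 genes at an unadjusted p below 0.05.

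The unfiltered fit showed the weaker mitosis members. At 8 weeks 11 of the 40 members were lower in cachectic than in control mice, where 4.77% of all genes in that fit were called lower, and 1, Pcna, was higher, where 3.73% were. The same fit called 9 members lower and 1 higher against non-cachectic mice, where 3.78% and 3.62% of genes were. Of the 24 mitosis members, 9 were lower against control mice: the 2 chromosome genes Mki67 and Top2a and 7 of the 13 genes of the spindle, kinetochore and cytokinesis. The last were Bub1 and Bub1b of the spindle checkpoint, Cenpa and Cenpf of the kinetochore, the spindle motor gene Kif11, the midzone gene Prc1 and the chromosomal passenger gene Cdca8. None of the 7 mitotic cyclins and kinases passed at 8 weeks, but all 7 had a negative log2 difference, as did 23 of the 24 mitosis members, whose median was -0.72 against a median of -0.05 over all genes.

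Kif11, a motor that pushes the spindle poles apart, had 0.0843 to 0.192 TPM (median 0.148) in the cachectic mice at 8 weeks, 0.201 to 0.461 TPM in the control mice and 0.310 to 0.480 TPM in the non-cachectic mice. The cachectic mice overlapped neither of the other groups, and the difference was -0.85 ± 0.258 on the log2(TPM + 0.1) scale against control mice (limma adjusted p = 0.026). Top2a, the topoisomerase that untangles replicated chromosomes, had 0.0355 to 0.381 TPM against 0.290 to 0.722 TPM, with a difference of -1.08 ± 0.357 (adjusted p = 0.046). Here the highest cachectic mouse, replicate 3 again, overlapped the lowest control mouse. Bub1b, which holds anaphase until chromosomes are attached, had 0.0254 to 0.177 TPM against 0.179 to 0.323 TPM, with a difference of -1.08 ± 0.296 (adjusted p = 0.012). Cenpf differed by -0.84 ± 0.191 (adjusted p = 0.002), and its control mean was 5.30 times the cachectic mean, at 0.123 and 0.0232 TPM, levels for which the number of reads is unknown.

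Of the other kinetochore and spindle genes, Cdca8, a subunit of the complex that carries Aurora B, had 0.0514 to 0.283 TPM in the cachectic mice and 0.178 to 0.550 TPM in the control mice, with a difference of -0.87 ± 0.221 (limma adjusted p = 0.0064). Prc1, which bundles microtubules at the midzone, had 0.0163 to 0.132 TPM against 0.129 to 0.408 TPM, with a difference of -1.01 ± 0.301 (adjusted p = 0.023). Bub1 ran from 0 to 0.0512 TPM against 0.0333 to 0.215 TPM, with a difference of -0.72 ± 0.219 (adjusted p = 0.028). For Cdca8, Prc1 and Bub1 the ranges of the 2 groups overlapped. The cytokinesis kinesins did not pass at this week. Kif20a had 0.220 to 0.5002 TPM against 0.561 to 0.944 TPM, without overlap between the groups (-0.71 ± 0.253, adjusted p = 0.069). Kif23 had 0.0156 to 0.571 TPM against 0.396 to 0.758 TPM (-0.89 ± 0.354, adjusted p = 0.11). Aurka, the Aurora kinase of the spindle poles, averaged 0.518 ± 0.0478 TPM in the cachectic and 0.758 ± 0.219 TPM in the control mice (-0.44 ± 0.200, adjusted p = 0.19).

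For Plk1 and Nusap1 the group means at 8 weeks differed by less than the largest SD. Plk1, the Polo kinase of mitosis, averaged 0.342 ± 0.0586 TPM in control, 0.332 ± 0.132 in non-cachectic and 0.332 ± 0.129 in cachectic mice. Nusap1, a microtubule-binding protein of the spindle, averaged 0.433 ± 0.0671, 0.533 ± 0.0618 and 0.523 ± 0.229 TPM in the same order, and its exons overlap those of Oip5. It was the 1 mitosis member with a positive difference from control mice at this week, 0.16 ± 0.302 (limma adjusted p = 0.87). Without the 4 libraries that stood apart, 16 members were lower and 3 higher against control mice at 8 weeks, and Mki67 differed by -1.52 (adjusted p = 0.0031). The share of all genes called in that fit is not given here, so the larger count is not read as particular to the members.

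At 6 weeks the calls in the unfiltered fit were not the same against the 2 reference groups, but the difference between those 2 groups, tested in the comparison of non-cachectic with control mice, was called for no member. Against non-cachectic mice 7 mitosis members were lower, where 0.787% of genes were called lower, and Pcna was higher, where 2.11% were. They included the mitotic kinase gene Cdk1 (-1.21 ± 0.333, adjusted p = 0.03), its cyclin Ccnb1 (-1.04 ± 0.305, adjusted p = 0.046) and the cytokinesis kinesin gene Kif20a (-1.14 ± 0.274, adjusted p = 0.0108). Against control mice this fit called none lower, where 0.515% of genes were, although the filtered fit called Cenpa. Pcna and the thymidylate synthase gene Tyms (0.61 ± 0.173, adjusted p = 0.035) were higher, where 2.48% were. Tyms had 0.722 to 0.918 TPM in the cachectic mice and 0.403 to 0.701 TPM in the control mice. The mitosis members had a median difference of -0.84 against non-cachectic and -0.47 against control mice. Their summed level was 6.73 ± 1.96 TPM in cachectic, 8.59 ± 1.05 in control and 11.9 ± 3.57 in non-cachectic mice (SD, n = 5 each). The 2 higher calls against control mice became 0 under rescaling over nuclear genes, which called 2 members lower instead, and without the 4 libraries 4 members were higher and 3 lower. The shares of all genes called in those fits are not given here, so these counts are not read as particular to the members.

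**Figure D3:**
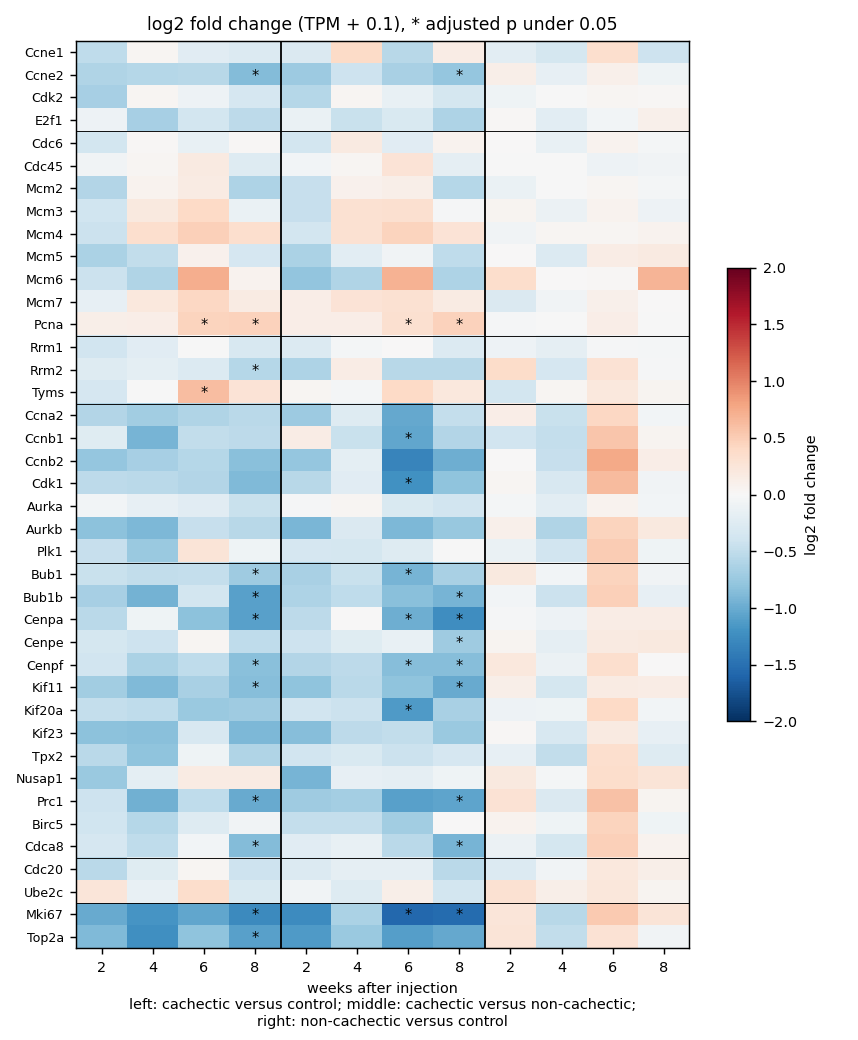
Log2 difference of the 40 members (rows, by role) in the 12 comparisons within a week (columns), on the log2(TPM + 0.1) scale of the unfiltered fit. An asterisk marks an adjusted p below 0.05. The mitosis members are mostly negative in cachectic mice at each week, and asterisks stand only at 6 and 8 weeks.

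No comparison of the cachectic mice in the unfiltered fit called a member at 2 or 4 weeks. Averaging the 4 weekly differences, a comparison added after the data had been seen, used all 22 cachectic and 20 control mice at once. It called 21 of the 40 members lower in cachectic than in control mice, where 7.98% of genes were called lower, and 1 higher, where 4.64% were. Against non-cachectic mice it called 19 lower and 1 higher, where 4.54% and 4.87% of genes were. In both comparisons 17 of the 24 mitosis members were lower and 0 higher, with medians of -0.60 and -0.65.

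Among the mitotic cyclins and kinases, 5 of 7 were lower against control mice: Ccna2, Ccnb1, Ccnb2, Cdk1 and Aurkb, with log2 differences from -0.54 for Ccnb1 to -0.71 for Ccnb2. The kinase genes Plk1 and Aurka did not pass the test. Among the spindle, kinetochore and cytokinesis genes, 10 of 13 were lower, led by Kif11 at -0.77 ± 0.137 (limma adjusted p = 4.2e-05) and Bub1b at -0.76 ± 0.157 (adjusted p = 0.00038). Nusap1, Birc5 and Cenpe did not pass, and Cenpe did against non-cachectic mice at -0.38 ± 0.113 (adjusted p = 0.021). Both chromosome genes were lower, Mki67 by -1.13 ± 0.216 (adjusted p = 0.00014) and Top2a by -0.9996 ± 0.189 (adjusted p = 0.00012). Neither Cdc20 nor Ube2c, the activator and the ubiquitin-conjugating enzyme of the ligase that ends mitosis, passed the test in any comparison here.

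Values at each week are given for members that stand for the roles. Mki67 averaged 0.691 ± 0.430, 0.804 ± 0.344, 0.488 ± 0.201 and 0.777 ± 0.291 TPM (SD, n = 5) in control mice at 2, 4, 6 and 8 weeks, and 0.839 ± 0.424, 0.518 ± 0.206, 0.811 ± 0.435 and 0.930 ± 0.254 TPM in non-cachectic mice. In cachectic mice it averaged 0.323 ± 0.306, 0.294 ± 0.113, 0.186 ± 0.101 and 0.309 ± 0.270 TPM, below both other groups at every week. Top2a averaged 0.441 ± 0.254, 0.516 ± 0.141, 0.355 ± 0.122 and 0.523 ± 0.159 TPM in control mice against 0.234 ± 0.242, 0.167 ± 0.077, 0.169 ± 0.111 and 0.206 ± 0.111 TPM in cachectic mice. In non-cachectic mice Top2a averaged 0.564 ± 0.300, 0.349 ± 0.134, 0.505 ± 0.264 and 0.493 ± 0.154 TPM. At 2 weeks the SD of Top2a in cachectic mice was as large as the mean, and neither gene passed the test at that week. Cachectic replicates 3 and 4 of that week were among the libraries that stood apart.

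Ccna2, the cyclin of S phase and early mitosis, averaged 0.544 ± 0.262, 0.588 ± 0.260, 0.353 ± 0.124 and 0.513 ± 0.172 TPM in control mice and 0.373 ± 0.312, 0.308 ± 0.070, 0.196 ± 0.069 and 0.338 ± 0.179 TPM in cachectic mice. Cdk1, its kinase partner in mitosis, averaged 0.578 ± 0.256, 0.482 ± 0.171, 0.326 ± 0.111 and 0.520 ± 0.196 TPM against 0.396 ± 0.264, 0.294 ± 0.063, 0.182 ± 0.056 and 0.268 ± 0.225 TPM. In non-cachectic mice the means were 0.657, 0.399, 0.508 and 0.481 TPM for Ccna2 and 0.625, 0.373, 0.565 and 0.491 TPM for Cdk1. Both genes had their lowest mean at 6 weeks in control and in cachectic mice, and the averaged difference was -0.61 ± 0.164 for Ccna2 (limma adjusted p = 0.008) and -0.63 ± 0.163 for Cdk1 (adjusted p = 0.0055). Birc5, which encodes survivin, a partner of Aurora B, averaged 0.315 ± 0.192, 0.265 ± 0.096, 0.187 ± 0.110 and 0.287 ± 0.127 TPM in control mice and 0.216 ± 0.187, 0.151 ± 0.081, 0.128 ± 0.048 and 0.271 ± 0.155 TPM in cachectic mice. Its averaged difference, -0.33 ± 0.176, did not pass the test (adjusted p = 0.24), and its non-cachectic means were 0.367, 0.245, 0.279 and 0.266 TPM. Ube2c averaged 0.345 ± 0.097, 0.527 ± 0.177, 0.411 ± 0.107 and 0.597 ± 0.210 TPM against 0.452 ± 0.263, 0.449 ± 0.050, 1.03 ± 1.60 and 0.589 ± 0.657 TPM, with 0.455, 0.592, 0.502 and 0.607 TPM in non-cachectic mice. A single cachectic mouse with 3.89 TPM made the high mean at 6 weeks.

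The genes of DNA synthesis did not move as a block. None of the 6 MCM subunits passed in either 4-week average, and their median differences were -0.02 against control and -0.09 against non-cachectic mice. Their summed level at 8 weeks was 22.7 ± 2.91 TPM in control, 23.9 ± 1.93 in non-cachectic and 24.2 ± 7.16 in cachectic mice, and 26.6 ± 3.65 TPM in the cachectic mice without replicate 3 (n = 6), which had 9.82 TPM. At 6 weeks it was 20.2 ± 1.37, 21.4 ± 3.55 and 27.5 ± 7.06 TPM, with 39.2 TPM in 1 cachectic mouse, replicate 1. These sums were not tested. The sum of the mitosis members at 8 weeks was 11.8 ± 2.36, 12.1 ± 1.99 and 6.91 ± 2.18 TPM in the same order, and 6.24 ± 1.39 TPM in cachectic mice without replicate 3. The single subunits spread in different directions at 8 weeks: Mcm7 averaged 6.07 ± 2.82 TPM in cachectic and 4.88 ± 0.493 in control mice, Mcm2 3.18 ± 1.50 and 4.22 ± 0.612, Mcm3 3.89 ± 1.32 and 4.13 ± 0.873, and Mcm6 2.24 ± 0.798 and 2.16 ± 0.885 TPM. For Mcm2 the value of cachectic replicate 3, 0.502 TPM, was the lowest of all 62 mice. Cdc6, which loads the helicase, averaged 0.212 ± 0.0503 and 0.205 ± 0.0339 TPM, and Cdc45, a part of the active helicase, 1.98 ± 0.525 and 2.32 ± 0.351 TPM. Neither Cdc6 nor Cdc45 was called in any comparison. Entry genes were lower in 2 of 4 cases against control mice, Ccne2 by -0.65 ± 0.121 (limma adjusted p = 9.4e-05) and E2f1, a transcription factor of S phase genes, by -0.41 ± 0.142 (adjusted p = 0.046). Both ribonucleotide reductase genes were lower, Rrm1 by -0.23 ± 0.072 (adjusted p = 0.022) and Rrm2 by -0.33 ± 0.097 (adjusted p = 0.018). Against non-cachectic mice Rrm2 (-0.40 ± 0.097, adjusted p = 0.0034) and Ccne2 were lower again, while Rrm1 (-0.15 ± 0.072, adjusted p = 0.24) and E2f1 (-0.37 ± 0.142, adjusted p = 0.092) did not pass. Rrm2 averaged 1.42 ± 0.388, 1.86 ± 0.590, 1.45 ± 0.193 and 1.66 ± 0.242 TPM at the 4 weeks in control mice, 1.83 ± 0.316, 1.40 ± 0.118, 1.80 ± 0.411 and 1.64 ± 0.295 in non-cachectic mice and 1.21 ± 0.456, 1.59 ± 0.371, 1.20 ± 0.287 and 1.08 ± 0.171 TPM in cachectic mice. E2f1 averaged 0.677 ± 0.210, 0.738 ± 0.240, 0.652 ± 0.158 and 0.603 ± 0.138 TPM at the 4 weeks in control mice and 0.642 ± 0.311, 0.419 ± 0.069, 0.491 ± 0.162 and 0.417 ± 0.214 TPM in cachectic mice, with 0.727, 0.616, 0.638 and 0.661 TPM in non-cachectic mice. Mcm5 averaged 1.54 ± 0.472, 1.87 ± 0.258, 1.50 ± 0.250 and 1.71 ± 0.322 TPM against 1.16 ± 0.822, 1.31 ± 0.214, 1.61 ± 0.392 and 1.38 ± 0.483 TPM, with 1.55, 1.54, 1.70 and 1.93 TPM in non-cachectic mice, and did not pass the test (-0.34 ± 0.138, adjusted p = 0.096). Pcna was higher by 0.29 ± 0.043 (adjusted p = 2.2e-06). Without the 4 libraries that stood apart, the 4-week average called 3 members higher and 21 lower against control mice, and 3 higher and 18 lower against non-cachectic mice, with the shares over all genes in that fit not given here.

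**Figure D4:**
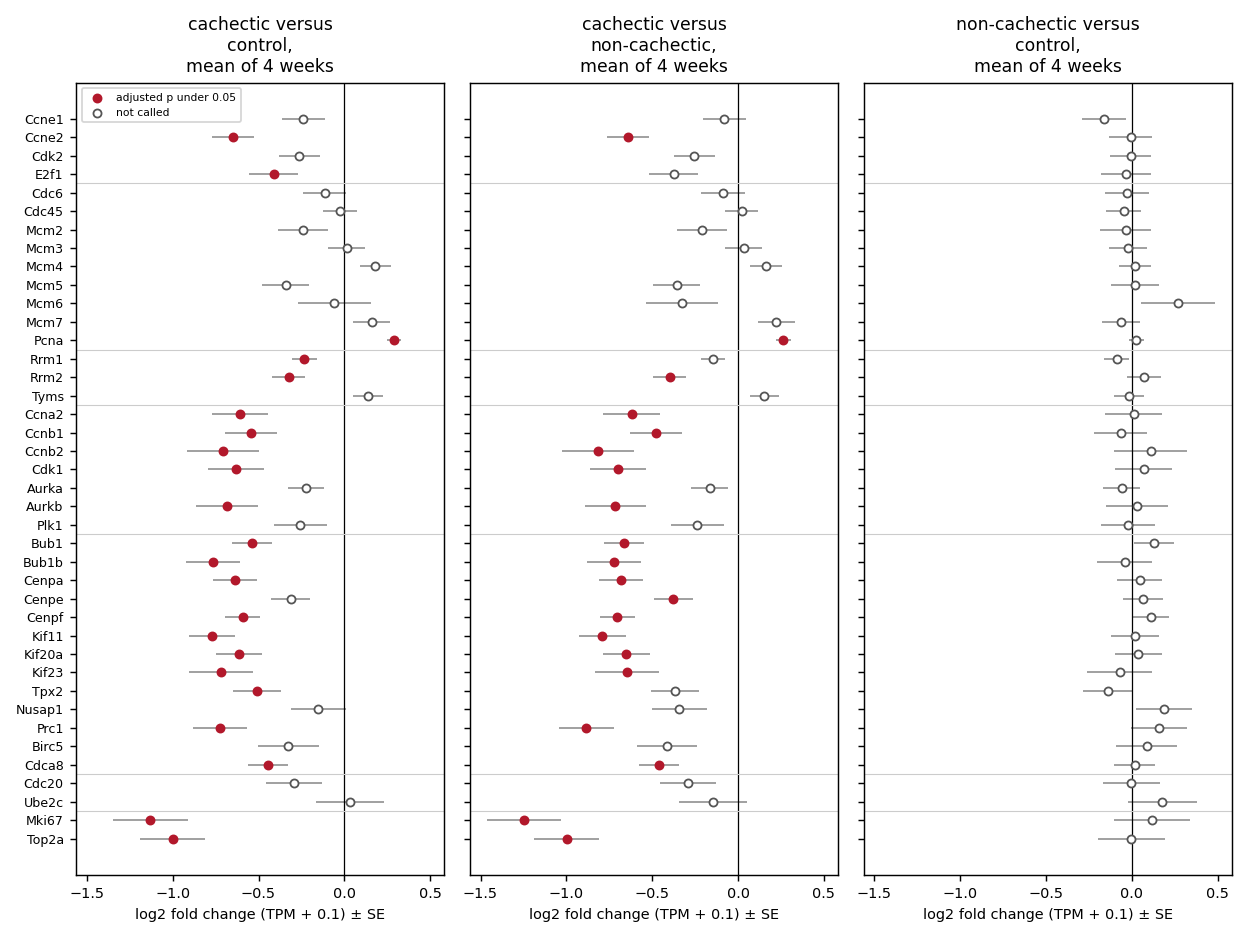
Log2 difference ± SE of each member, averaged over the 4 weeks, on the log2(TPM + 0.1) scale, for cachectic against control, cachectic against non-cachectic and non-cachectic against control mice. Filled red points have an adjusted p below 0.05; 22 members are filled in the first comparison, 20 in the second and 0 in the third.

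**Figure D5:**
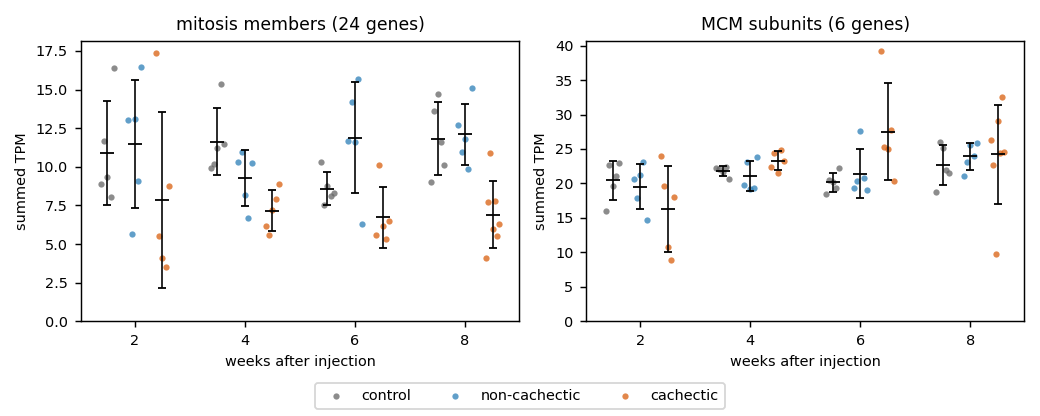
Summed TPM of the 24 mitosis members and of the 6 MCM subunits in each mouse by week and group, with bars for the mean ± SD. The mitosis sum in the 7 cachectic mice at 8 weeks spans 4.12 to 10.9 TPM against 8.99 to 14.7 in control mice, and the MCM sums of the 3 groups overlap.

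Between non-cachectic and control mice no member was called at any week. In the filtered fit no member was called at 2 weeks, where 4.43% of all genes were, nor at 4, 6 and 8 weeks, where 0% were in each case. Beside those 3 zeros, limma gave 68, 100 and 55 genes with an unadjusted p below 0.05. Quantile normalization, another scaling, called 2 members at 2 weeks. The share of all genes called in that fit is not given here, so the 2 calls are not read as particular to the members. In the 4-week average of the unfiltered fit 0% of genes were called, and the 24 mitosis members had a median of 0.04. Mki67 in non-cachectic mice ran at 1.22, 0.64, 1.66 and 1.20 times the control mean over the 4 weeks. The sign thus changed from week to week without a call at any of them.

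The promoters of the members carried sequence that is known from cell cycle genes. The cell cycle homology region (CHR) is the element through which the DREAM complex and B-Myb with FoxM1 act on genes of mitosis, commonly beside CCAAT boxes bound by NF-Y, and E2F sites are the counterpart in genes of S phase. A RefSeq promoter on GRCm38.p6, from 250 bases before to 50 after the start, was available for 34 of the 40 members and for 27025 genes in all. On either strand, the CHR letters TTTGAA or TTCGAA were found in 16 of the 20 mitosis members with a promoter (80.0%), in 3 of the 14 other members (21.4%) and in 19.4% of all promoters. CCAAT was found in 18 of the 20 (90%), in 10 of the 14 (71.4%) and in 37.9% of all promoters. The E2F letters TTTGGCGC, TTTCGCGC or TTTCCCGC were found in 1 of the 20 (5.0%), in 6 of the 14 (42.9%), among them 4 of 5 MCM subunits, and in 1.91% of all promoters. No motif contained another, although matches that adjoin can share an end base, and TTCGAA reads the same on both strands. A match is a description of the letters in this window, not a site in use.

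Promoters are printed for the 4 mitosis members with the lowest log2 differences in the 4-week average that had one, and for Pcna, the 1 member higher in that average. Capitals mark the CHR letters and the CCAAT box, each as read on either strand, and every sequence runs 5′ to 3′ on the strand of the gene. Mki67 (chr7:135716330-135716629, minus strand) had 2 CHR and 3 CCAAT matches, and Top2a (chr11:99024140-99024439, minus strand) had 4 and 6. Kif11 (chr19:37376132-37376431, plus strand) had 1 of each, Bub1b (chr2:118597961-118598260, plus strand) had 2 and 1, and Pcna (chr2:132253131-132253430, minus strand) had 0 and 1.
Mki67: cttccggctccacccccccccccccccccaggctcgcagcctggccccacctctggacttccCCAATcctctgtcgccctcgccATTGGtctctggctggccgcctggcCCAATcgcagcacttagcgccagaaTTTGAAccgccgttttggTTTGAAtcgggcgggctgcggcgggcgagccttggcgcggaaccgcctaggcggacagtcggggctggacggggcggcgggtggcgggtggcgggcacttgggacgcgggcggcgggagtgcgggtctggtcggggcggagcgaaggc
Top2a: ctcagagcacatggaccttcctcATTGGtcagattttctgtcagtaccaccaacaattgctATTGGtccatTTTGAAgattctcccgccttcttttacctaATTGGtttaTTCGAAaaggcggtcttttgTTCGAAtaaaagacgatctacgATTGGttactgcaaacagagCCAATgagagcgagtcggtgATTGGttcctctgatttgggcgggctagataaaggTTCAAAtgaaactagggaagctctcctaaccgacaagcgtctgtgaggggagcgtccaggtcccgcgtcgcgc
Kif11: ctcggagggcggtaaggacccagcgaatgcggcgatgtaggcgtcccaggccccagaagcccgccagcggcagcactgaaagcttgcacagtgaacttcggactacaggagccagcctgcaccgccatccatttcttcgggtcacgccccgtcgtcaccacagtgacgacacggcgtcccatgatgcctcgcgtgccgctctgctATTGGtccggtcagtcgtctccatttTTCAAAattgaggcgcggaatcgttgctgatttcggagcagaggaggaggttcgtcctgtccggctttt
Bub1b: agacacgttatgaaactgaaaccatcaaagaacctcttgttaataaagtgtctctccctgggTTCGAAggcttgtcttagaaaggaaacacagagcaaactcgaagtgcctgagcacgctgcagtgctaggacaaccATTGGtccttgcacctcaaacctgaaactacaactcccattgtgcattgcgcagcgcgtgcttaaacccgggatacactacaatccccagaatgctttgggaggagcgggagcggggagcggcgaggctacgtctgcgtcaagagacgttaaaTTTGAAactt
Pcna: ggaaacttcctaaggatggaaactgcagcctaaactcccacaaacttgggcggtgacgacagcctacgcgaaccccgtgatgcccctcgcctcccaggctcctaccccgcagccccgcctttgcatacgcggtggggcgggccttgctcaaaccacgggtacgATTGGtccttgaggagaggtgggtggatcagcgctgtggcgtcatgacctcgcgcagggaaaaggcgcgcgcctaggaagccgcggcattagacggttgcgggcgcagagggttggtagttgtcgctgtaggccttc

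The rest of the pathway was read from lists of other genes. Upstream of S phase, 14 of the 15 G1 cyclins, kinases and inhibitors passed the filter. At 8 weeks cyclin D1 (Ccnd1), which links growth signals to the cell cycle, stood at 10.6 ± 2.27 TPM in control, 7.85 ± 2.86 in non-cachectic and 2.42 ± 0.978 in cachectic mice, and was lower by -1.79 ± 0.302 on the log2(TPM + 1) scale against control mice (limma adjusted p = 2.2e-05). Cyclin D2 (Ccnd2) was lower by -0.98 ± 0.200 (adjusted p = 0.00035), and the CDK4 and CDK6 inhibitor gene Cdkn2d was higher by 0.50 ± 0.119 (adjusted p = 0.0018). No other gene of that list was called against control mice at 8 weeks, where 14.8% of all tested genes were. Of the 8 E2F, B-Myb and FoxM1 family genes that passed the filter, only the repressor gene E2f6 was called, lower by -0.70 ± 0.178 (adjusted p = 0.0041). That share is near the 14.8% of all tested genes called there, so it is not a result about the family. The directions were the same against non-cachectic mice for all 4 genes, with each past the threshold, in a comparison in which 12.9% of all tested genes were called.

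Among 19 other S phase genes that passed the filter, 2 were higher and 1 lower at 8 weeks against control mice, a share near the 14.8% of all tested genes called there. Gins1, a subunit of the GINS complex that completes the active helicase, was higher by 0.93 ± 0.168 (limma adjusted p = 5.9e-05) and the origin recognition gene Orc6 by 0.37 ± 0.107 (adjusted p = 0.011), while Dut, the dUTPase that keeps uracil out of DNA, was lower by -0.58 ± 0.123 (adjusted p = 0.00057). At 6 weeks Gins1 and Orc6 were again higher, and Gmnn, which encodes geminin, the inhibitor of a second round of licensing, was lower by -0.67 ± 0.171 (adjusted p = 0.0097). Of 10 p53 target genes, 4 were higher at 8 weeks against control mice, where 6.65% of all tested genes were, led by the growth arrest gene Gadd45a at 1.31 ± 0.310 (adjusted p = 0.0018), Btg2 at 1.12 ± 0.335 (adjusted p = 0.015) and Sesn1 at 0.92 ± 0.292 (adjusted p = 0.025), and Ccng1, named after its value was seen, was lower by -0.60 ± 0.130 (adjusted p = 0.00068), where 8.12% of genes were. Against non-cachectic mice Gadd45a was the 1 higher (1.18 ± 0.310, adjusted p = 0.006), where 6.75% of genes were, and Ccng1 was lower again, where 6.19% were. In the unfiltered fit, a list of other mitosis genes, 31 of whose 33 were in the table, had 2 members lower against control mice at 8 weeks, a share near the 4.77% of all genes called lower there. In the 4-week average 14 were lower and 0 higher, where 7.98% of genes were lower, with a median of -0.34 against -0.06 over all genes.

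Some markers of other cell types differed in the same mice. Summed over 9 macrophage genes, the level at 8 weeks was 292 to 1202 TPM (median 790) in cachectic mice, 305 to 608 TPM (415) in control mice and 246 to 1344 TPM (373) in non-cachectic mice, and 4 of the 9 genes were called higher in cachectic than in control mice (Mrc1, C1qa, C1qb and C1qc). Of all tested genes, 6.65% were called higher and 8.12% lower in that comparison. The 7 mature neutrophil genes summed to 9.76 to 75.6 TPM (28.2), against 4.60 to 15.4 (10.9) and 9.77 to 14.3 (11.8), with S100a8 and Retnlg called higher. The 8 neutrophil precursor genes had medians of 9.11, 0.73 and 0.84 TPM in cachectic, control and non-cachectic mice. The unfiltered fit called Prtn3 (2.16 ± 0.638, limma adjusted p = 0.022) and Chil3 (4.47 ± 1.22, adjusted p = 0.012) higher against control mice, where 3.73% of genes were. Against non-cachectic mice it called Chil3 higher, where 3.62% of genes were, and the filtered fit called Prtn3 higher in both comparisons. Of the same list, Elane was listed at 0 in 42 mice and Mpo in 31. The 8 endothelial genes summed to 74.6 to 307 TPM (269), against 251 to 317 (284) and 250 to 310 (258), with Kdr and Aplnr called lower. For the change per week in cachectic mice, the filtered fit called Aplnr falling but Pecam1 and Emcn rising. In that comparison 34.4% of all tested genes were called.

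The 8 genes of satellite cells and myoblasts summed to 12.9 to 56.9 TPM (median 32.5) in cachectic mice at 8 weeks, 32.4 to 45.9 (40.1) in control and 28.3 to 37.9 (29.8) in non-cachectic mice, and 0 of the 7 that passed the filter were called at that week, nor was any of 8 in the unfiltered fit. Chodl of this list was called higher in cachectic mice at 6 weeks, by 0.96 ± 0.210 against control mice (limma adjusted p = 0.0023) and 0.94 ± 0.210 against non-cachectic mice (adjusted p = 0.0032). It was also called higher in both 4-week averages, by 0.36 ± 0.103 and 0.43 ± 0.103 (adjusted p = 0.0093 and 0.0020). The 8 erythroid genes, which can mark dividing precursors as well as blood, ran from 538 to 41262 TPM in cachectic and 2554 to 10570.1 TPM in control mice, and none was called. The 8 melanocyte and melanoma genes summed to 4.14 to 11.4 TPM (9.08) against 9.20 to 10.6 (9.40), none was called, and Mlana was listed at 0 in 49 mice. The 8 genes of fibro-adipogenic progenitors, the connective tissue cells of muscle, summed to 893 to 2089 TPM (median 1117) in cachectic, 696 to 1247 (1121) in control and 859 to 1186 (1089) in non-cachectic mice, with Dcn and Ly6a called higher and Col3a1 and Lum lower against control mice. Of all tested genes, 6.65% were called higher and 8.12% lower there. The 8 T cell genes summed to medians of 13.0 TPM in cachectic and 24.3 TPM in control mice. Of these, Thy1, which other cells also express, was the one called lower. The 7 adipocyte genes summed to 888 to 4300 TPM (median 1540) in cachectic mice. Control mice had 656 to 1389 (798) and non-cachectic mice 623 to 2343 (830), with Fabp4 called higher against control mice. The 7 mesothelium and 7 B cell genes had medians of 121, 150 and 153 TPM and of 10.2, 11.6 and 25.8 TPM in that order. Lrrn4 and Fcer2a of these lists were called lower against non-cachectic mice, where 6.19% of all tested genes were. At 6 weeks the macrophage sums overlapped between cachectic (340 to 715 TPM) and control mice (323 to 839 TPM), while the mature neutrophil sums, 17.1 to 32.5 TPM, lay above the control range of 4.25 to 13.4 TPM. The part of these cell types in the members' differences was not tested.

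Reads of some members cannot be told apart from those of a neighbor if strand was not used in counting. The exons of 13 members overlapped those of another gene in the annotation, among them Ube2c with the fast troponin C gene Tnnc2, which had 7307 to 16351 TPM, Ccna2 with Exosc9, Kif20a with Cdc23, Prc1 with Rccd1 and Ccne2 with Ints8. Of the genes whose values are given in full, Pcna (chr2:132249162-132253314), Mki67 (chr7:135689784-135716361), Cenpa (chr5:30666777-30674830), Kif11 (chr19:37376403-37421859) and Bub1b (chr2:118598211-118641591) overlapped none on GRCm38. Top2a (chr11:98992943-99024189) overlapped a small RNA gene.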

How the data were processed

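RNA from the diaphragm of 62 female mice was sequenced on a NovaSeq instrument. The authors aligned the reads to the mouse genome (mm10, per the labels and the processing notes) in CLC Genomics Workbench and deposited 1 table of TPM values, which sum to the same total in every library. The annotation release, the strand setting and the treatment of reads that map to several places are not given in the sources used here, and TPM carry no read depth, so no counting error can be attached to a value. The study's own test was a Kruskal-Wallis test with Dunn's comparisons on log TPM.

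Groups came from the sample labels, and every per-sample column of the table was mapped to a mouse. The main test was limma (3.58.1, in R 4.3.3) on log2(TPM + 1) for the 13578 genes that reached 1 TPM in 5 or more mice, with 12 condition means, a trended variance and Benjamini-Hochberg adjustment. The filtered fit gave the 12 comparisons within a week and the changes per week. After the data had been seen, a fit without the filter and with a pseudocount of 0.1 (23900 genes), the average of the 4 weekly differences, and fits without the 4 libraries under 17000 detected genes were added. Both fits were also run on simulated data, with changes placed only in genes that averaged at least 0.1 TPM. That check therefore does not cover Bub1 and Cenpf, which averaged 0.0844 and 0.0834 TPM. For the filtered fit it also left out all 25 members that did not pass the filter. The simulated noise was normal on the log scale, and changes of a single size were placed in a single comparison. It therefore does not show how the tests behave with the counting noise of weakly expressed members. Figures were drawn with matplotlib 3.10.9. Other scalings, pseudocounts, filters, tests and left-out mice were tried as alternatives. The check for shared replicate numbers is in the closing section.

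The members, the gene lists and the tests were chosen with earlier results of these data known. By the rule for named genes, the text accounts for all 40 members, gives 10 that stand for the roles at every week, the members called in each comparison, up to 3 called genes per pathway list, and the 5 genes most like the members. Promoters came from RefSeq, matched by symbol for 34 of the 40 members, and gene positions from the GENCODE annotation on GRCm38. One mouse gave 1 library, so p-values measure the spread between mice. Melanoma xenograft reads of human origin in muscle were not looked for.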

Additional observations from a re-analysis of the deposited data

Results flagged for a closer look

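Single mice far from the others of their condition were looked for in 120 groups of 5 or 7 mice with Dixon's ratio, which by chance marks about 1 in 20, and 12 were marked. Ube2c, whose exons overlap those of the troponin gene Tnnc2, held 3 of them: 0.922 TPM in cachectic replicate 1 at 2 weeks (others 0.314 to 0.362), 3.89 TPM in cachectic replicate 2 at 6 weeks (0.239 to 0.450) and 2.06 TPM in cachectic replicate 3 at 8 weeks (0.164 to 0.501). Birc5, which encodes survivin of the chromosomal passenger complex, held 3 as well: 1.01 TPM in non-cachectic replicate 5 at 2 weeks (others 0.164 to 0.300), 0.539 TPM in cachectic replicate 1 at 2 weeks (0.0808 to 0.212) and 0.603 TPM in cachectic replicate 3 at 8 weeks (0.141 to 0.288). The first and the last of these 3 mice gave libraries with few detected genes.

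Control replicate 4 at 4 weeks was the highest for both Ccna2, at 1.04 TPM (others 0.388 to 0.525), and Mki67, at 1.40 TPM (0.518 to 0.732). Cachectic replicate 1 at 6 weeks was the highest for Pcna, at 32.9 TPM (24.8 to 27.0), and Mcm5, at 2.30 TPM (1.35 to 1.52). Rrm2 reached 2.51 TPM in non-cachectic replicate 1 at 6 weeks (1.46 to 1.75), and E2f1 was low, at 0.368 TPM, in control replicate 1 at 8 weeks (0.631 to 0.736).

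The change per week differed between cachectic and control mice by a test of the difference itself for Pcna, at 0.0648 ± 0.019 per week on the log2(TPM + 1) scale (limma adjusted p = 0.0245), and Mcm4, at 0.11 ± 0.034 (adjusted p = 0.0348). The median over all tested genes in this comparison was 0.0511, so Pcna lay 0.0136 and Mcm4 0.0545 above it. The control and cachectic mice at 8 weeks numbered 5 and 7, and the direction of both differences was toward a rise in cachectic mice. Neither passed after rescaling over nuclear genes or with the liver list as a covariate, and Mcm4 did not pass in the unfiltered fit (adjusted p = 0.061).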

How the results depend on the processing

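The filtered counts below include Mki67 where it was called. The shares of all genes called under each alternative are not given here, so a changed count is not read as particular to the members. Of the 15 filtered members, 2 were called for cachectic against control mice at 2 weeks, and 0 without a filter, with array quality weights, with the replicate block, with only the groups compared in the fit, with Dunn's test, without the 4 libraries that stood apart, with the liver list as a covariate or with a log2 difference over 1 required, and 1 with TPM rescaled over nuclear genes. At 4 weeks 0 were called, and 3 with weights. At 6 weeks the 2 calls became 1 over nuclear genes, 6 with weights, 1 with the replicate block, 6 without the 4 libraries and 0 with Dunn's test or the fold rule. At 8 weeks the 5 calls became 11 without a filter, 8 over nuclear genes, 3 with the replicate block, 2 with only the groups compared, 2 with Dunn's test, 8 without the 4 libraries and 0 with the fold rule. Against non-cachectic mice the 3 calls at 6 weeks became 8 without a filter, 9 with weights, 5 with only the groups compared, 6 without the 4 libraries and 0 with Dunn's test or the fold rule, and the 5 calls at 8 weeks became 10, 9 over nuclear genes, 1 with only the groups compared, 1 with Dunn's test and 0 with the fold rule. For non-cachectic against control mice the 0 at 2 weeks became 2 with quantile normalization. The 4 calls for the change per week in cachectic mice became 2 with weights or only the groups compared and 0 with the fold rule, and the 2 slope differences became 1 with weights and 0 over nuclear genes, with only the groups compared, with the liver covariate or with the fold rule. In the unfiltered fit, the 2 calls against control mice at 6 weeks became 7 without the 4 libraries, 1 with the replicate block and 1 with a pseudocount of 0.01, the 12 at 8 weeks became 19 without the 4 libraries and 7 with the block, and against non-cachectic mice the 8 at 6 weeks became 17 and the 10 at 8 weeks 19 without the 4 libraries and 16 over nuclear genes. The 4-week averages of 22, 20 and 0 calls stayed within 1.5 times under every alternative run. At 2 weeks Rrm1 turned to 0.12 with median-ratio scaling and 0.13 with quantile normalization, and Cdk2 to 0.0226 with quantile normalization. The cause was not tested in any of these cases. With each mouse left out in turn, the filtered counts ran from 0 to 9 against control mice at 2 weeks, 0 to 0 at 4, 1 to 2 at 6 and 3 to 6 at 8 weeks, from 0 to 2, 0 to 0, 0 to 3 and 3 to 6 against non-cachectic mice, and from 3 to 7 for the change per week in cachectic mice and 0 to 2 for the slope difference. The unfiltered counts ran from 1 to 3 and 6 to 14 against control mice at 6 and 8 weeks, from 1 to 12 and 6 to 15 against non-cachectic mice, and from 21 to 25 and 19 to 23 in the 4-week averages. Rrm2 lost its call against control mice at 8 weeks without control replicate 4 or 5, and Ccne2 lost its call against non-cachectic mice without non-cachectic replicate 1 or 5. The count of 7 for the cachectic slope arose without cachectic replicate 3 at 8 weeks, and the 1 against non-cachectic mice at 6 weeks without cachectic replicate 1. Same-numbered mice share only a number: 18 of 60 pairs had deviations that correlated above 0.1, from -0.63 to 0.39. The block was not fitted to the changes per week, because each week holds other mice. Depth limits nothing that can be stated, since TPM carry none.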

Other observations

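Among genes outside every list, those whose deviations from the condition means followed the mean of the members that passed the filter most closely over the 62 mice were Cap1 (Pearson r = 0.92), Nono (0.91), Msn (0.91), Gnb1 (0.91) and Efhd2 (0.90). The members' mean correlated at 0.88 with the mean of all tested genes and at 0.78 with the number of genes above 0. These points share their libraries, and the values are descriptions.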
